A study of Triticum aestivum with 4 samples.

Results

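The avenin-like storage protein genes of wheat (*Triticum aestivum*) were represented on the array by 2 genes, avnla (LOC780582) and avnlb (LOC100125692). Members were all probe sets that the platform's annotation gives to either gene, and these were 6 of the 61179 probe sets tested, for 2 of 771 listed genes. A probe set is a group of short oligonucleotides designed on 1 source transcript, and in 2 of the 6 the ID marks probes that other transcripts share. Of the 6 probe sets, 2 belong to avnla and 4 to avnlb, and together they were designed on 4 source sequences, counted by accession. The rule also asked for other probe sets with the same transcript-cluster prefix. The 3 prefixes held 0 probe sets besides the members. RefSeq's annotation of the Chinese Spring assembly (IWGSC CS RefSeq v2.1) places avnla on chromosome 7D and avnlb on chromosome 4A.

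Avenin-like proteins are cysteine-rich prolamins of the starchy endosperm, named for their likeness to the avenins of oat and related to the gliadins. Prolamins are the alcohol-soluble storage proteins of cereal grains, and their transcripts build up mainly during grain filling. Type a proteins are short. Type b proteins, of which avnlb encodes one, carry a duplicated form of the same domain, and their cysteines can form disulfide bonds with other gluten proteins and so enter the gluten polymer of dough.

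RNA came from whole developing seed 5 days after anthesis. The groups were Domain, named AC Domain in the series' design, and RL4452, both parental lines of a set of DH progeny lines, with 2 arrays each, numbered replicate 1 and replicate 3. The labels name no treatment of either genotype, all plants stood in field rows at 1 site, and each tube pooled the seeds needed to fill it. The 2 replicates are labelled biological, but their field rows and plants are not named, so the spread between them covers these arrays only.

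Values are on the log2 scale and relative to the probe set's median, taken across the 4 arrays. A value of 1 thus means a signal of 2 times that median, and 0 means the median itself. The scale keeps differences between arrays and loses the level of 1 gene against another. For that reason it could not be shown how strongly the avenin-like genes were expressed, or which tissue of the seed dominated. In whole seed, fewer endosperm cells and less RNA per cell cannot be told apart. The members were proposed with the genotype difference of avnla and the values of avnlb in Domain replicate 3 already known, so their values below are a description and support no test.

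Most avenin-like probe sets stood out in a single array. In Domain replicate 3, 5 of the 6 probe sets lay between 2.05 and 2.66, and in each of them this was the highest of the 4 arrays. The same 5 ran from 0.00 to 0.54 in Domain replicate 1 and from -1.19 to 0.00 over the RL4452 arrays. RL4452 averaged lower than Domain in these 5, by 2.22-fold to 5.54-fold, and the remaining probe set, of avnlb, had a difference of 0.32 in the opposite direction. By comparison, 25.2% of all tested probe sets had their highest value in Domain replicate 3.

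**Figure D1:**
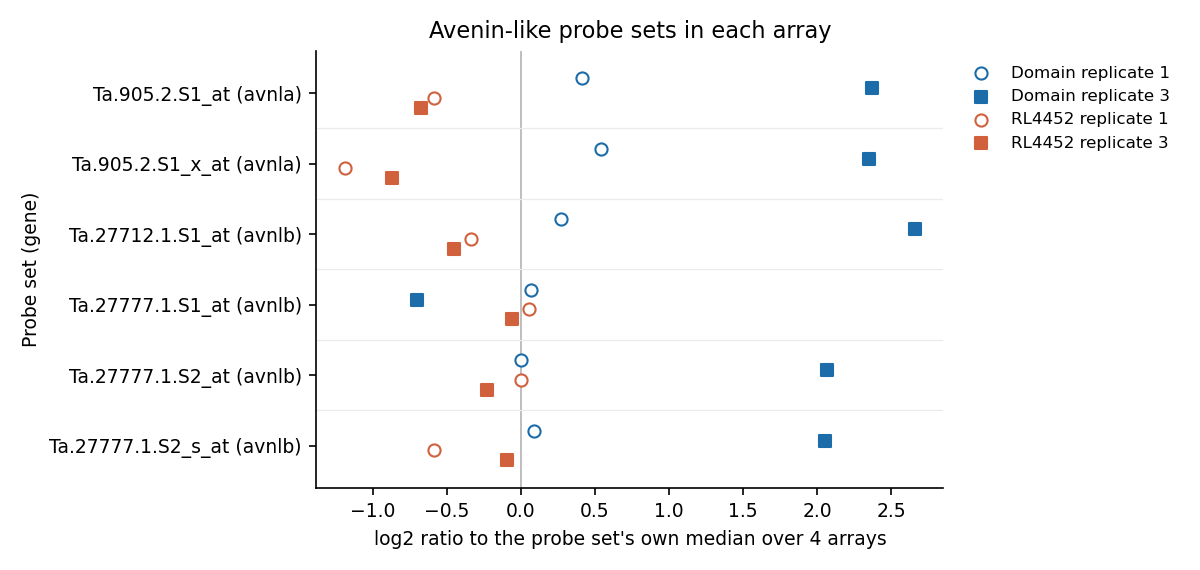
Log2 ratio of each avenin-like probe set to its own median (x axis) in the 4 arrays, 1 row per probe set. Blue is Domain and orange RL4452, open symbols are replicate 1 and filled squares replicate 3. Filled blue squares lie between 2.05 and 2.66 in 5 rows and at -0.70 in the row of Ta.27777.1.S1_at.

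The gene avnla encodes a type a avenin-like protein and was read by 2 probe sets made on the same source transcript. In Domain, Ta.905.2.S1_x_at stood at 0.54 in replicate 1 and at 2.35 in replicate 3, while its RL4452 values were -1.19 and -0.87 in that order. The genotypes did not overlap, with RL4452 below. Domain averaged 1.44 ± 1.28 and RL4452 averaged -1.03 ± 0.23 (SD, n = 2), a difference of -2.47 with SE 0.61. Every SE given is the moderated one of limma, which draws each probe set's spread toward a prior shared by all probe sets. For the members it is smaller than their own SDs alone would give. The Domain values of Ta.905.2.S1_at were 0.42 and 2.37, and those of RL4452 -0.59 and -0.67. Again the genotypes did not overlap, and the difference was -2.02 with SE 0.64. The suffix of the first probe set marks probes shared with other transcripts. The probe sets disagreed by at most 0.60 in any array.

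Domain replicate 3 set much of the size of these avnla differences, though not their sign. It exceeded Domain replicate 1 by 1.95 for Ta.905.2.S1_at and by 1.81 for Ta.905.2.S1_x_at, that is 3.87-fold and 3.50-fold. Between the RL4452 replicates the same gaps were -0.085 and 0.32, and 0.29 and 0.69 after quantile normalization. Domain replicate 1 still lay above the higher RL4452 array, by 1.00 and 1.41. Without Domain replicate 3 the genotype differences were -1.04 and -1.57, and without Domain replicate 1 they were -3.00 and -3.38.

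The gene avnlb encodes a type b avenin-like protein and was read by 4 probe sets, which did not all follow the same pattern. For Ta.27712.1.S1_at, Domain replicate 1 read 0.27 and replicate 3 read 2.66, against -0.34 and -0.45 in RL4452. The genotypes did not overlap. Domain averaged 1.47 ± 1.69 and RL4452 averaged -0.39 ± 0.08 (SD, n = 2), a difference of -1.86 with SE 0.77. Domain replicate 3 exceeded replicate 1 by 5.23-fold, the widest replicate gap among the 6 members.

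A pair of probe sets was designed on a second source sequence of avnlb. With values of 0.09 and 2.05 in Domain against -0.58 and -0.09 in RL4452, Ta.27777.1.S2_s_at had a difference of -1.41 with SE 0.66. Its genotypes did not overlap, but Domain replicate 1 lay only 0.18 above the higher RL4452 array. The Domain arrays of Ta.27777.1.S2_at read 0.00 and 2.07 and the RL4452 arrays 0.00 and -0.23, a difference of -1.15 with SE 0.68. Here Domain replicate 1 and RL4452 replicate 1 were equal, at a ratio of 1, so the genotypes were not separated. Such a tie at the median was seen in 844 of the 61290 features of the table.

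The fourth avnlb probe set, Ta.27777.1.S1_at, had its lowest value where the others had their highest. Its Domain values were 0.07 and -0.70, and its RL4452 values 0.06 and -0.06. Only Domain replicate 3 departed from the rest, which lay within 0.07 of the median. The difference was 0.32 with SE 0.30, and without Domain replicate 3 it was -0.069. This probe set was designed on another source sequence than the other avnlb probe sets. By its ID, however, it belongs to the same transcript cluster as Ta.27777.1.S2_at and Ta.27777.1.S2_s_at. Whether it reads a separate transcript was not tested.

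**Figure D2:**
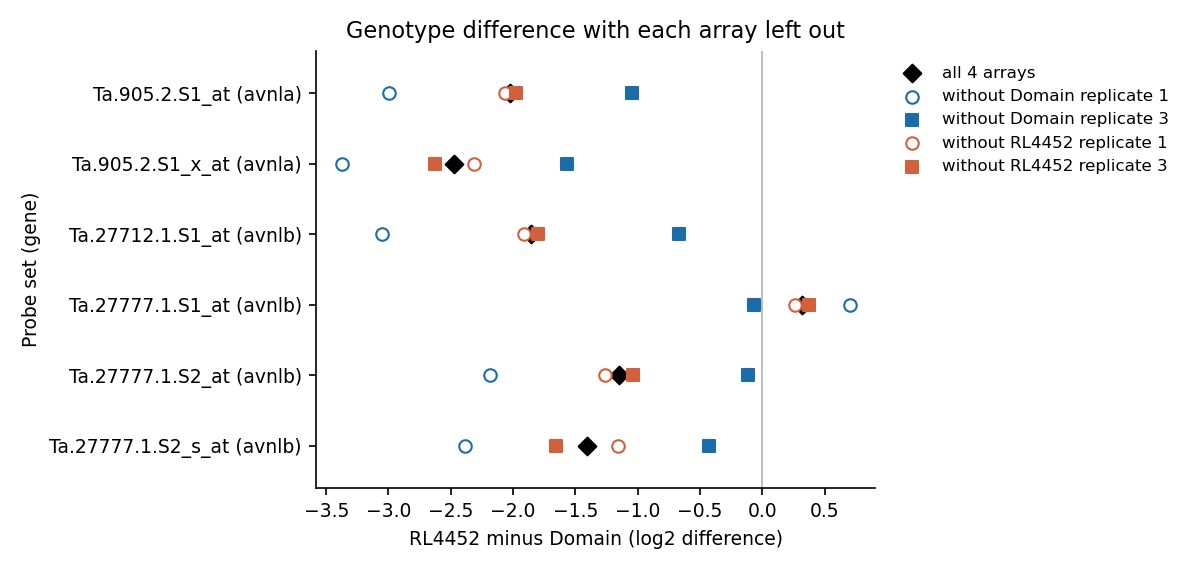
Difference between RL4452 and Domain (x axis, log2) for each avenin-like probe set with all 4 arrays (diamonds) and with each array left out. Blue marks a Domain and orange an RL4452 array left out, open symbols replicate 1 and filled squares replicate 3. Without Domain replicate 3 the 2 avnla probe sets stand at -1.04 and -1.57, and the 4 avnlb probe sets between -0.66 and -0.07.

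Without Domain replicate 3, then, the avenin-like genes differed among themselves in what was left. The avnlb probe sets then had differences of -0.66, -0.43, -0.12 and -0.069, against -1.04 and -1.57 for avnla. The difference between the genes was not tested. Over all 6 probe sets the median difference was -1.63 with all arrays and -0.54 without Domain replicate 3, beside 0.01 over all tested probe sets. Leaving out either RL4452 array gave -1.59 and -1.73.

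In 4 of the 6 members the RL4452 arrays were the lower pair, an arrangement found in 15.5% of all tested probe sets. After quantile normalization or median-centring of the arrays it was 5 of 6, because the tie of Ta.27777.1.S2_at was broken. In limma, 0 of the 6 passed a Benjamini-Hochberg adjusted p under 0.05, where 0.28% of all tested probe sets did. The members' limma adjusted p ran from 0.497 to 0.979, and 2 of the 6, both of avnla, had an unadjusted p under 0.05, as did 5.85% of all tested probe sets. Nothing is read from these counts, since the genes were chosen on this contrast.

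The replicate gap in Domain was wide against that of other transcripts. Over all tested probe sets the Domain replicates differed with an SD of 0.457 and the RL4452 replicates with an SD of 0.499, on the log2 scale. The 5 avenin-like probe sets that were high in Domain replicate 3 differed by 1.81 to 2.39 between the Domain replicates. At least as large a rise from Domain replicate 1 to Domain replicate 3 as that of Ta.27712.1.S1_at was found in 37 of the 61179 probe sets, itself included, and as that of Ta.905.2.S1_x_at in 71. The members were proposed with the avnlb values in Domain replicate 3 and the avnla genotype difference known. These positions are therefore a description and support no test. In RL4452 the 6 members differed by -0.23 to 0.49 between replicates, and by -0.19 to 0.69 after quantile normalization, which turned the sign for Ta.905.2.S1_at and for Ta.27712.1.S1_at (from -0.11 to 0.12).

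**Figure D3:**
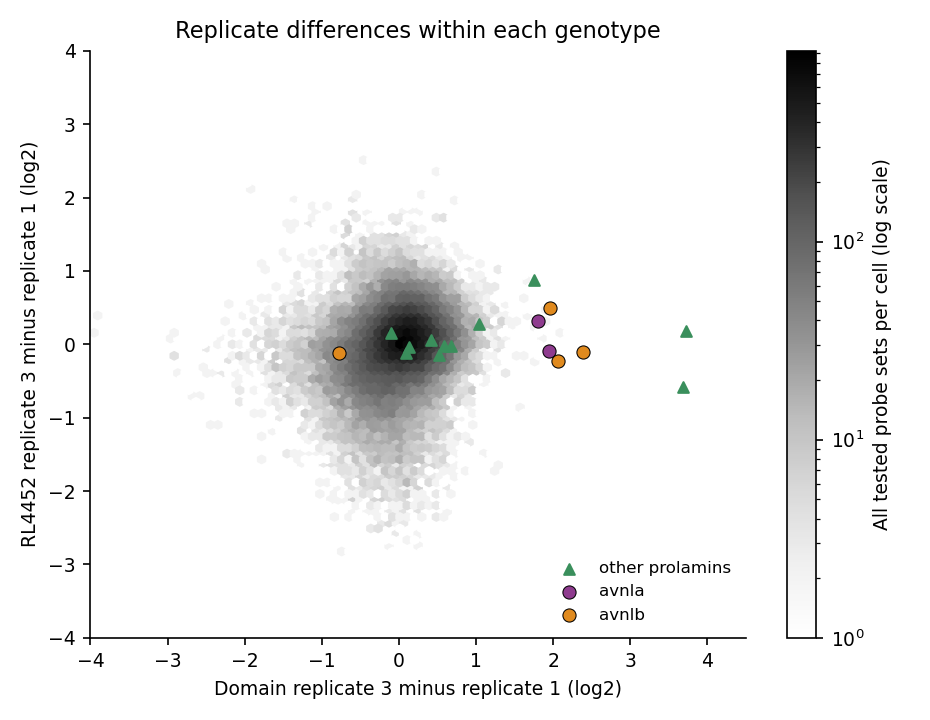
Difference between replicate 3 and replicate 1 in Domain (x axis) and in RL4452 (y axis), both log2. Grey shading counts all tested probe sets, purple points are avnla, orange points avnlb and green triangles other prolamins. In Domain, 5 of the 6 avenin-like points lie between 1.81 and 2.39, and in RL4452 all 6 lie between -0.23 and 0.49.

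Few transcripts shared the height of the avenin-like genes in that array. Domain replicate 3 was more than 1 log2 unit above each other array in 157 probe sets, or 0.257% of those tested, and 5 of these were avenin-like. The corresponding number was 416 for Domain replicate 1, 140 for RL4452 replicate 1 and 199 for RL4452 replicate 3. A gene was listed for 26 of the 157 probe sets (16.6%), of 20 genes, against 2.08% of all tested probe sets. Besides the 5 avenin-like probe sets, those with a readable name were 2 gliadins, amylase and trypsin inhibitors of the ATI and WMAI-1 genes, the purothionin genes THI1.1 and THI1.3, and a serpin. Another 10 of the 20 genes have no readable name, so the named ones do not describe the whole set. They were named after their values were seen.

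The other storage prolamins were picked by name, from the symbols and synonyms of the listed genes. They were 11 probe sets of 6 genes, comprising alpha-type and gamma gliadins and a low-molecular-weight glutenin. Prolamins among the listed genes without a readable name could not be found this way, so the list covers named ones only. Gliadins are monomeric gluten proteins, and the glutenin forms part of the gluten polymer. Their median difference between genotypes was -0.24, and it was 0.0021 without Domain replicate 3. In limma 0 of the 11 passed in either direction, and 0 had an unadjusted p under 0.05, beside 0.28% and 5.85% of all tested probe sets. Nothing about the list is read from this. Domain replicate 3 held the highest value in 10 of the 11, beside 25.2% of all tested probe sets. It stood more than 1 log2 unit above each other array in 2 of the 11, beside 0.257% of all. For the avenin-like probe sets the latter count was 5 of 6. They were proposed with avnlb values in this array already known, so their count does not set them apart from the other prolamins. The difference between these counts was not tested.

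Single gliadins reached higher in Domain replicate 3 than any avenin-like probe set did. Besides the 3 gliadin probe sets named next, the other prolamins lay between -0.035 and 0.73 there. Over the 11 probe sets the median gap between Domain replicates 3 and 1 was 0.59, beside 0.037 over all tested probe sets. A gamma-gliadin probe set of LOC543214, Ta.30782.4.S1_at, stood at 4.05 in that array, at 0.33 in the other Domain array, and at -0.61 and -0.43 in RL4452. An alpha-type gliadin probe set of LOC543211 stood at 3.45 there, and at -0.23, 0.20 and -0.38 elsewhere. A probe set of LOC543210 had 1.26 against -0.49, -0.52 and 0.36. In these 3 probe sets, as in most avenin-like probe sets of both genes, Domain replicate 3 lay well above Domain replicate 1. Only the first had Domain replicate 1 above both RL4452 arrays. The 3 glutenin probe sets of LOC543213 ran from 0.09 to 0.67 in Domain replicate 3. Probe sets of the same gamma-gliadin gene, LOC543214, did not agree. In Domain replicate 3, Ta.28632.1.A1_at stood at 0.10 and Ta.28632.1.S1_x_at at 0.73, against 4.05 for Ta.30782.4.S1_at. For Ta.28632.1.S1_x_at, Domain replicate 1, at -0.32, lay below both RL4452 arrays.

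**Figure D4:**
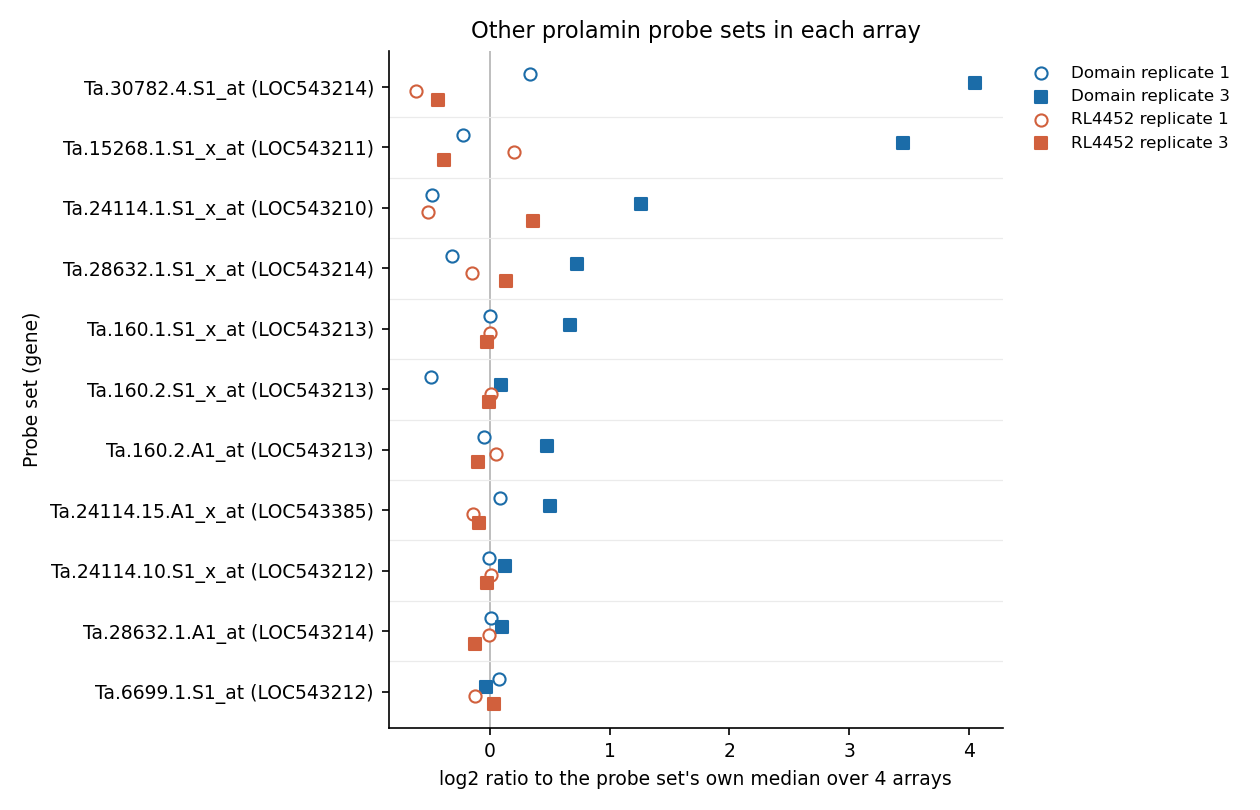
Log2 ratio of each of the 11 other prolamin probe sets to its own median (x axis) in the 4 arrays, ordered by the gap between the Domain replicates. Colours and symbols are as in the plot of avenin-like probe sets. Domain replicate 3 is highest in 10 of the 11 rows, at 4.05 and 3.45 in the 2 upper ones.

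For avnla the pattern comparison used Ta.905.2.S1_x_at, whose suffix marks probes shared with other transcripts. Its values over the 4 arrays were compared with those of 1271 probe sets of other listed genes by Euclidean distance of the log2 values. The other avnla probe set was not used as a reference, so the neighbours named here are those of Ta.905.2.S1_x_at. The nearest was a probe set of LOC100125699, at a distance of 0.56, where Domain had 0.62 and 2.85 and RL4452 had -1.16 and -1.10. It was followed by an ATI gene, LOC543286, at 0.70, the purothionin gene THI1.1 at 0.83, LOC606352 at 0.88 and the ATI gene LOC543281 at 0.89. ATI proteins inhibit amylases and trypsin, and purothionins are antimicrobial peptides of the endosperm. In limma none of the 5 passed, where 0.28% of all tested probe sets did, and nothing is read from this. All 5 averaged lower in RL4452 than in Domain, with log2 differences from -2.96 to -2.00. Their direction follows from being chosen as nearest to avnla. Distances over 4 arrays order these probe sets and carry no test.

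For avnlb the comparison used Ta.27712.1.S1_at. The nearest probe set belonged to LOC543308, at a distance of 0.29, where Domain had 0.13 and 2.67 and RL4452 had -0.14 and -0.29. The second was Ta.905.2.S1_at of avnla, at 0.47, which is closer to this avnlb probe set than to the other avnla probe set, at 0.64. LOC542851 followed at 0.78, LOC542894 at 0.83 and LOC780684 at 0.92. Among the 5 avenin-like probe sets high in Domain replicate 3 the distances ran from 0.47 to 1.48, and from Ta.27777.1.S1_at to the others they ran from 2.78 to 3.43.

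**Figure D5:**
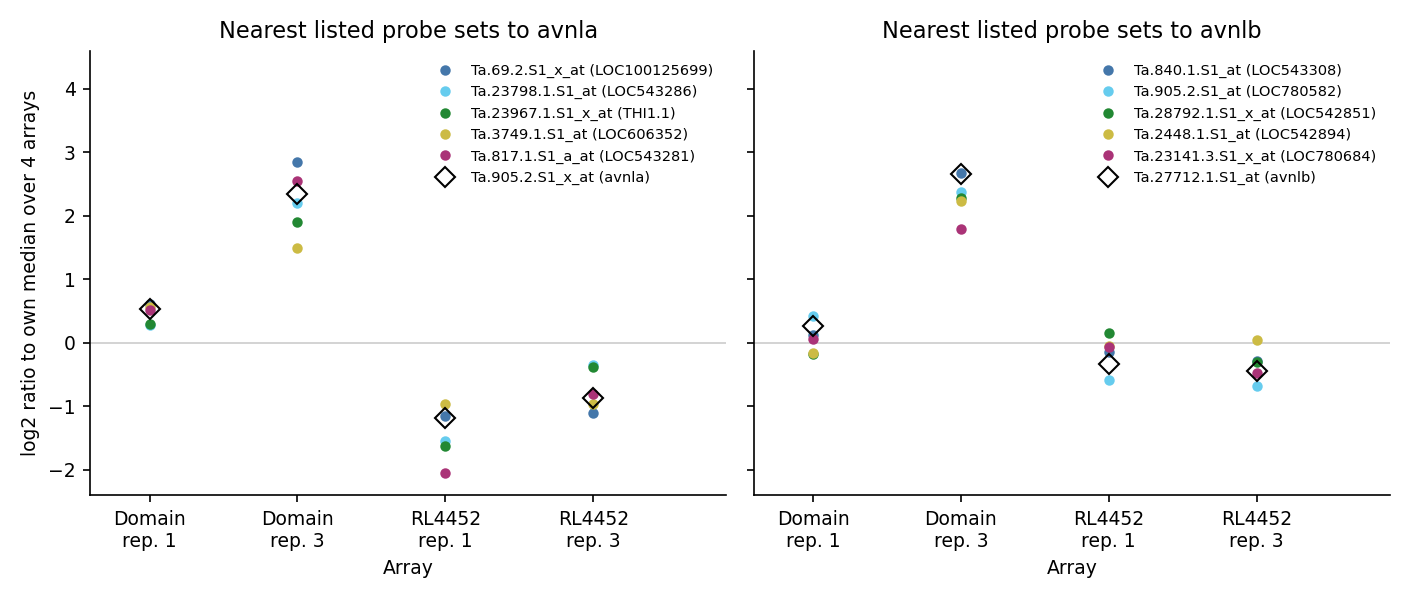
Log2 ratios (y axis) in the 4 arrays (x axis) of the reference probe sets of avnla and avnlb, drawn as open diamonds, and of the 5 probe sets of other listed genes nearest to each, drawn as points. Domain replicate 3 is the highest array of every probe set drawn, and around avnla the RL4452 values lie below those of Domain replicate 1.

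LOC542894 is also a neighbour of avnla in the gene table, which places it 2 genes away on chromosome 7D. It has no readable name there, and this remark was made after its values were seen. Its probe set read -0.15 and 2.23 in the Domain arrays, with RL4452 at -0.04 and 0.04. Here, unlike in avnla, Domain replicate 1 did not lie above the RL4452 arrays. The next gene on that side carries the avenin-like synonym ALPb-7D and is not listed for any probe set. None of the 3 nearest genes on either side of avnlb is listed either.

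No probe set in the lists of markers of other tissues lay above 0.96 in Domain replicate 3. Raftin genes of the anther tapetum (4 probe sets) had medians of 0.04 (replicate 1) and 0.02 (replicate 3) in Domain, and their values ran from -0.34 to 0.44 in Domain and from -0.11 to 0.12 in RL4452. Genes of green tissue, mostly the plastid gene rbcL (31 probe sets), had medians of -0.034 and -0.0072 in Domain, with values from -0.53 to 0.72, and in RL4452 values ran from -0.82 to 1.17. Embryo and drying-seed genes (10 probe sets) had a median of -0.17 in replicate 1 and 0.16 in replicate 3 of Domain. In RL4452 these medians were -0.12 and 0.14, with values from -0.41 to 0.96 in Domain and from -0.18 to 0.34 in RL4452. In the embryo list 0 probe sets, and in the others likewise 0, stood more than 1 log2 unit above each other array in Domain replicate 3. Of all tested probe sets 0.257% did, so nothing is read from these counts. Domain replicate 3 was the highest array in 6 of the 10 embryo and drying-seed probe sets, beside 25.2% of all tested probe sets. The part of embryo and drying-seed genes in the avenin-like values was not tested. The ratios do not show which of these markers were absent.

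In column median and in the 3' minus 5' difference of control transcripts, Domain replicate 3 lay within the range of the other arrays. Column medians were ratios of 0.987 to 1.007, and its own was 1.006. The 3' minus 5' difference of 7 wheat control pairs had a median of -0.0023 in Domain replicate 3 and of 0 in the other Domain array. Its medians were -0.22 and 0.40 in the RL4452 arrays. These values too are relative to each probe set's median, so they order the arrays and do not measure RNA quality itself. A part of RNA quality in the avenin-like values was not tested. Each array had its own hybridization day. Domain replicate 3 shared its fluidics module, the unit that washes and stains the array, with RL4452 replicate 1, in which the 5 probe sets lay between -1.19 and 0.00. Between these 2 arrays of the same module, the difference was -2.96 for Ta.905.2.S1_at and -3.54 for Ta.905.2.S1_x_at of avnla, and the 4 avnlb differences were -3.00, -2.63, -2.07 and 0.76. The day of hybridization and the array cannot be told apart.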

How the data were processed

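Per the labels' protocols, polyA RNA of whole seed was copied into biotin-labelled cRNA and hybridised to an Affymetrix wheat array. The authors deposited linear ratios. Their processing notes name RMA, and any later step is not stated in the sources. The row median across the 4 arrays was within 0.002 of 1 for 99.5% of the 61290 features, so each ratio is relative to its probe set's median. The ratios were log2-transformed, 111 control probe sets were left out, and no filter on low values was applied, so all 6 members were kept. Scanner setting files, per the file headers, gave the fluidics module and hybridization day. Their other values were not used.

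The genotypes were compared over the whole table in limma 3.58.1 (R 4.3.3), using lmFit and eBayes with genotype alone as the design, two-sided, with 2.99 prior degrees of freedom. Differences are RL4452 minus Domain, and their SEs are moderated by the shared prior. The script was tested on simulated data first. Summaries used Python 3.11.15, pandas 2.3.3, numpy 2.4.6 and matplotlib 3.10.9.

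The platform's annotation lists 1 gene for 1273 features and none for 60017, and 770 of its 771 genes matched the RefSeq gene table. The members and lists were chosen with earlier results of these data known. All members are named. Others follow a rule (the 5 nearest listed probe sets to each gene's widest-ranging probe set, and the 3 other prolamins with the largest genotype or Domain replicate differences) unless said otherwise. Alternatives were quantile normalization, median-centring, each array left out, a replicate block, a robust prior, probe sets with shared probes left out and, chosen after seeing the data, the arrays of 1 module. The number of arrays limits the precision.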

Additional observations from a re-analysis of the deposited data

How the results depend on the processing

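With 2 arrays per genotype the size of the avenin-like differences depended on which Domain array was used. Over arrays left out, the median of the 6 probe sets ran from -2.69 to -0.54, and that of other prolamins from -0.62 to 0.0021. Ta.27777.1.S1_at ran from -0.069 to 0.70 and was the only member to change sign, without Domain replicate 3. Within the shared fluidics module the medians were -2.80 and -0.65, from 1 array per genotype and with no test. Without probe sets with shared probes, 2 of the remaining 4 had both Domain arrays above both RL4452 arrays, since fewer were counted. Over all tested probe sets that share was 15.5%, and nothing is read from the count. The replicate numbers are not stated to pair arrays, and the replicate differences of the genotypes correlated at 0.143 across probe sets. A replicate block cannot move a difference in this balanced layout, so the median is -1.63 by construction. With it 0 members and 0 of all probe sets were called in limma, and 3 members and 7.45% of all had an unadjusted p under 0.05. The members had 0 calls in each alternative, but limma called 0 of all probe sets without either Domain array as well, so those fits say nothing of the members' stability. With a Domain array left out every SE comes from the RL4452 arrays and the shared prior, the lone array being assumed to vary like them. Without Domain replicate 1 this also removes the wide Domain gap. After quantile normalization, the RL4452 replicate gaps of 2 members changed sign, to 0.29 and 0.12. Ratios hold no signal over background, so dim probe sets could not be told from bright ones. The planned median of further probe sets with the same prefix has no value, as there were none.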
